A study of Mus musculus with 67 samples.

Results

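The IL-2 and IL-7 receptor STAT5 axis is the route by which T cells read 2 cytokines, IL-2 and IL-7, from receptor to nucleus. It was taken here as 10 genes listed by their role in the route: the receptor chains *Il7r*, *Il2rb* and *Il2rg*, the kinases *Jak1* and *Jak3*, the transcription factors *Stat5a* and *Stat5b*, the inhibitors *Cish* and *Socs1*, and the survival gene *Bcl2*. All 10 were found among the 24530 genes of the second experiment and among the 24421 gene symbols of the pilot. *Il7r*, in CD4+CD25+Foxp3GFP+ Tregs against activated Tconv, was the gene of main interest.

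IL-7 binds a receptor made of the *Il7r* product and the common gamma chain, which *Il2rg* encodes. IL-2 binds the same gamma chain together with the *Il2rb* product and, at high affinity, CD25. Both receptors carry JAK1 and JAK3, which phosphorylate STAT5A and STAT5B, and these in turn switch on *Cish*, *Socs1* and *Bcl2*; Tregs are commonly sorted as cells with much CD25 and little CD127, the protein of *Il7r*.

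The study sequenced RNA of T cells sorted from hypothalamus and from the rest of the brain of mice on a high-fat, high-sugar (HFHS) diet or a standard diet (SD). In the second experiment, 59 libraries came from Balb/c females and C57Bl/6J males, with diets given from 6 weeks of age and cells of 5 mice pooled in each sample. Strain could not be told apart from sex, and the labels do not give the weeks on diet. In the pilot, 8 libraries came from single pools of female hypothalami: 9 Foxp3GFP Balb/c mice after 16 weeks of SD or HFHS diet, and 7 *ob*/*ob* or C57Bl/6J (WT) mice.

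Activated Tconv of the second experiment were gated as effector CD4+ cells without CD25 or Foxp3GFP and with high CD44, so differences in *Il2ra* (CD25), *Foxp3* and *Cd44* between the cell types come with the sort. The pilot's naive cells were CD4+CD25- with low to intermediate CD44, its Tregs were CD25 highFoxp3GFP+, and the *ob*/*ob* and WT cells were split by CD25 alone.

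Levels below are CPM, each count scaled to a library total of 1e6 (counts-per-million). Median totals were 19113230 counts in 13 Tconv and 17377169 in 14 Treg libraries of the rest of the brain, and 18052453.5 in 16 Tconv and 15027196 in 16 Treg libraries of the hypothalamus. Hypothalamic Tregs ranged most, from 1724149 to 38482277 counts. A level of 3 counts or fewer was treated as the floor, which lay between 0.0780 and 1.74 CPM in those libraries. Genes with more than 10 counts had a median of 10783 in brain Tconv, 8817.5 in brain Tregs, 9609 in hypothalamic Tconv and 4479.5 in hypothalamic Tregs, where 1 library held 2108. Fewer cells in a sort and less RNA per cell cannot be told apart in these data.

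*Foxp3* separated most libraries as labelled. It was 30.4 CPM or higher in 26 of the 30 Treg libraries and 13.8 CPM or lower in all 29 Tconv libraries. In 4 libraries labelled Treg, all of hypothalamus, it was under 10 CPM, so the hypothalamic comparison of Tregs with Tconv is given with and without them for each member; other results include them unless stated. The library labelled C57Bl/6J SD Treg 11_15 had the 5 T cell markers at a summed 167 CPM, against 4108 CPM or more in every other library of the second experiment, with the 4 endothelial markers at 4099 CPM (*Cldn5* 2122), the 5 macrophage markers at 2224 CPM (*Lyz2* 1682) and *Il2ra* at 0. *Il2ra* was also at 0 in 2 other hypothalamic Treg libraries, Balb/c SD 42_46, where *Foxp3* was 497 CPM and *Ikzf2* at 0, and Balb/c SD 06_10, and both are kept throughout. The library labelled Balb/c SD Treg 32_36 had 1 count of *Foxp3* and 1 of *Il2ra*, but *Ikzf2* at 1640 CPM and *Ctla4* at 1570 CPM, beside the microglial markers *P2ry12* at 4866 CPM and *Tmem119* at 1322 CPM, with *Sall1* at 0. The library labelled C57Bl/6J HFHS Treg 06_10 had 5 counts of *Foxp3*, with *Il2ra* at 666, *Ikzf2* at 1711 and *Ctla4* at 18.2 CPM. The one labelled C57Bl/6J SD Treg 43_47, the smallest of the second experiment, had 6 counts of *Foxp3*, with *Il2ra* at 757, *Ikzf2* at 793 and *Ctla4* at 229 CPM. In the pilot, the WT CD25 high library went against its label, with 2 of 5 T cell markers detected at a summed 87.4 CPM, *Cd4* at 0, and the microglial marker *P2ry12* at 18729 CPM. The pilot's library labelled naive on SD held *Foxp3* at 72.7 CPM, beside 75.3 CPM in Tregs on SD, though *Il2ra* (19.0 and 735 CPM) and the sum of the 4 Treg markers (125 and 4404 CPM) separated the 2 as labelled, and the WT CD25-negative library held it at 299.5 CPM (66 counts). The *ob*/*ob* library labelled CD25 high held *Il2ra* at 0, against 121 counts (70.0 CPM) in its CD25-negative partner, although its 4 Treg markers summed to 1801 CPM against 362 CPM; *Il2ra* was at 0 in both WT libraries.

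*Il7r* encodes the alpha chain of the IL-7 receptor. The first comparison asks whether Tregs and activated Tconv of the rest of the brain hold different amounts of the message. There were 13 Tconv and 14 Treg libraries, compared with edgeR in a model with strain and diet, and each strain and diet was also compared alone by an exact permutation test. A gene was counted as changed at an adjusted p below 0.05, the adjustment running over all genes tested. The p-values measure the spread between these pooled samples.

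In Balb/c mice on SD, brain Tconv libraries held *Il7r* at 929.6, 1137 and 778 CPM and Tregs at 609 and 1001. In Balb/c mice on the HFHS diet, Tconv held it at 847, 959 and 1038 CPM and Tregs at 768, 1134, 489 and 944. The Treg values fell on both sides of the Tconv values in Balb/c mice on HFHS diet, and 1 of the 2 on SD lay under them. In C57Bl/6J mice on SD, Tconv held 733, 617, 828 and 521 CPM and Tregs 582, 1117, 790.0 and 286. In C57Bl/6J mice on the HFHS diet, Tconv held 710.1, 854 and 559 CPM and Tregs 939.9, 541, 608 and 375. Groups overlapped in all 4 settings, and over the organ 11 of 14 Treg libraries lay within the Tconv range of 521 to 1137 CPM and 3 lay under it.

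The median was 828 CPM in brain Tconv and 689 CPM in brain Tregs. By edgeR *Il7r* did not pass in the rest of the brain (log2 fold change -0.24 ± 0.18 SE, adjusted p 0.452). It was below 0 in each of the 4 settings by exact permutation, with log2 differences of -0.25 (p 0.514) for Balb/c HFHS, -0.26 (p 0.5) for Balb/c SD, -0.26 (p 0.514) for C57Bl/6J HFHS and -0.10 (p 0.857) for C57Bl/6J SD. The smallest p these designs allow was 0.0286 with 4 Tregs, and 0.1 for Balb/c on SD. With limma voom and sample weights the log2 fold change was -0.49 (adjusted p 0.0212).

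In the hypothalamus the same comparison had 16 Tconv and 16 Treg libraries, 4 for each strain, diet and cell type. The 4 libraries with little *Foxp3* are all on the Treg side. The hypothalamus was also the organ of the pilot.

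In Balb/c mice on SD, hypothalamic Tconv held *Il7r* at 740.1, 678, 602 and 749 CPM and Tregs at 384, 667, 0.195 (2 counts, library 32_36) and 0.0295 (1 count, library 06_10). In Balb/c mice on the HFHS diet, Tconv held 797, 839, 781 and 586 CPM and Tregs 70.9, 1160.4, 739 and 103. Tconv lay close together in both, while 2 Treg libraries on SD were at the floor and 2 on the HFHS diet were near 100 CPM. In C57Bl/6J mice on SD, Tconv held 458, 657, 482 and 489 CPM and Tregs 886, 1588, 426 (library 43_47) and 34.7 (library 11_15). In C57Bl/6J mice on the HFHS diet, Tconv held 339.6, 658, 580.0 and 582 CPM and Tregs 35.05, 619.8, 277 and 791 (library 06_10). Over the hypothalamus, 7 of 16 Treg libraries lay under the Tconv range of 340 to 839 CPM, 6 within it and 3 above it.

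The median was 629 CPM in hypothalamic Tconv and 405 CPM in hypothalamic Tregs. By edgeR *Il7r* did not pass there (log2 fold change -0.38 ± 0.60 SE, adjusted p 0.911; without the 4 libraries -0.21, adjusted p 0.935). The exact permutation tests gave log2 differences of -1.40 (p 0.343) for Balb/c HFHS, -4.86 (p 0.0571; -6.12 with 0.1 in place of 1 added to CPM, as 2 Tregs are at the floor) for Balb/c SD, -0.99 (p 0.543) for C57Bl/6J HFHS and -0.43 (p 0.886) for C57Bl/6J SD. All 8 differences over both organs were below 0, with a lowest adjusted p of 0.457 over the 8 permutation tests. Mean CPM ran the other way in C57Bl/6J mice on SD, at 734 in Tregs against 522 in Tconv of hypothalamus and 694 against 675 in the rest of the brain. Without the 4 libraries, the C57Bl/6J SD difference of hypothalamus turned to 1.20 (2 Tregs against 4 Tconv, exact p 0.0667, the smallest possible), Balb/c SD became -3.43 and C57Bl/6J HFHS -1.51. By limma voom the hypothalamic log2 fold change was -2.005 (adjusted p 0.0150).

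**Figure D1:**
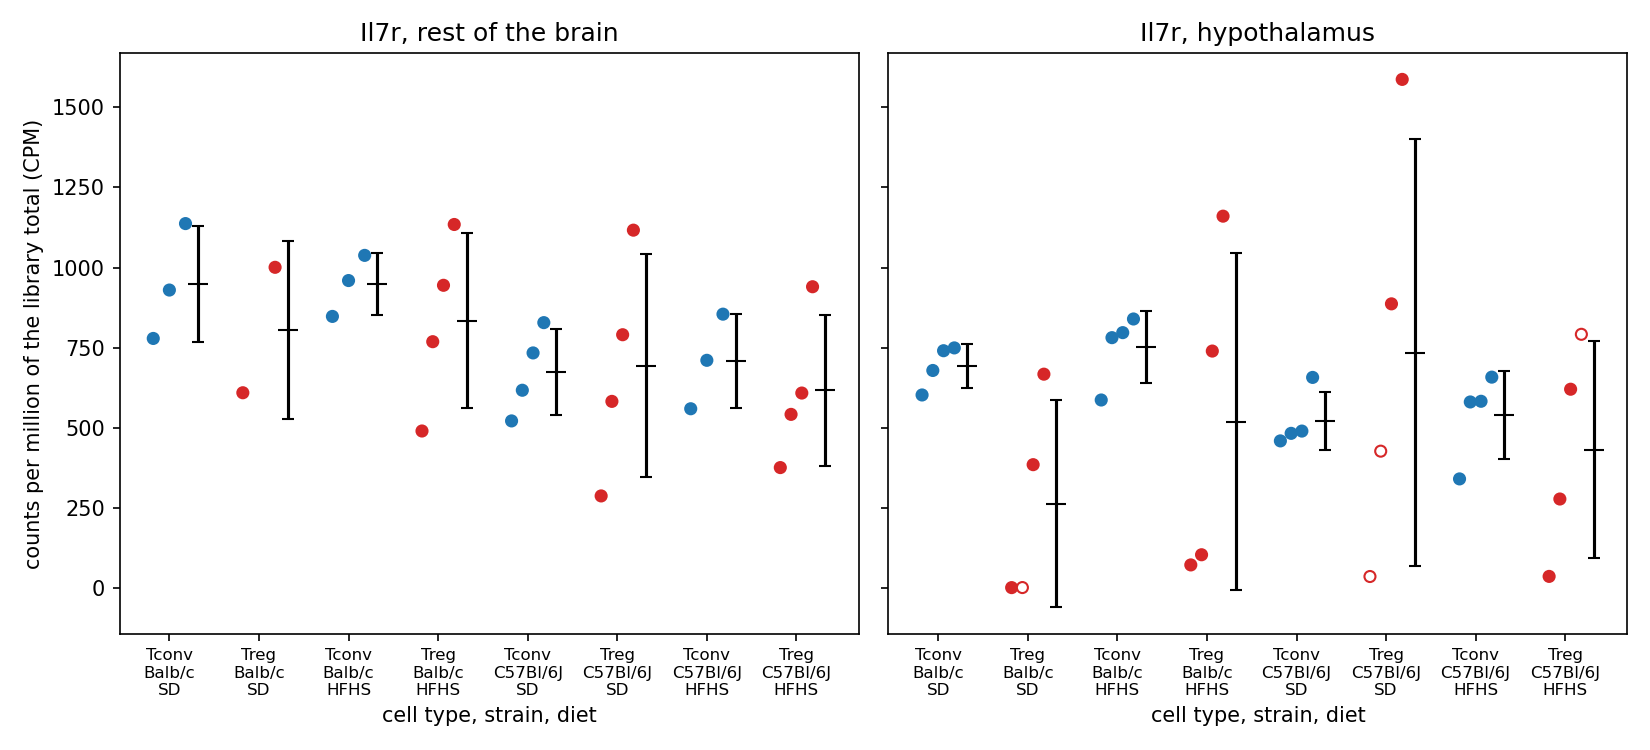
*Il7r* CPM in each library by strain, diet and cell type in both organs. Points are libraries, bars beside them are mean ± SD, and open circles mark the 4 libraries labelled Treg with *Foxp3* under 10 CPM.

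Ordered by mean CPM, the 16 groups ran from brain Balb/c SD Tconv (948 ± 180.2 SD) and brain Balb/c HFHS Tconv (948 ± 95.8) to hypothalamic C57Bl/6J HFHS Tregs (431 ± 340) and hypothalamic Balb/c SD Tregs (263 ± 325). Ranges of neighbours overlapped throughout. By edgeR the difference between cell types did not depend on the organ in a way that passed (interaction log2 0.11 ± 0.69, adjusted p 0.992). DESeq2 gave -0.29, and limma voom a more negative value, given with the processing below.

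The remaining 9 members were compared between the cell types in the same edgeR fits. In the rest of the brain 4 of 10 members passed, with 15% of all 13956 genes tested there passing. Of these 3 rose (3.98% of all genes rose) and 1 fell (11% of all genes fell). The median log2 fold change was 0.41 over the 10 members and -0.26 over all genes, or -0.17 with DESeq2 size factors and -0.78 with limma voom. In the hypothalamus 0 of 10 members passed by edgeR, with 7.73% of 11283 genes passing (0.541% higher and 7.19% lower). At an unadjusted p under 0.05 there were 2 members there, while DESeq2 called 2 members and 1605 genes and limma voom 8 members and 7329 genes. A fit of fewer hypothalamic libraries with a block for the pool number also called more members and genes, as given with the processing below. The hypothalamic medians were -0.57 over the members and -0.60 over all genes. Without the 4 libraries with little *Foxp3*, 0 members and 1742 of 12017 genes passed; refitted without library 11_15 alone, 0 members and 1547 genes passed, or 1420 when the set of genes tested was kept.

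Among the receptor chains, *Il2rb* encodes the signalling beta chain for IL-2 and IL-15. Brain libraries ranged from 56.1 through a median of 518 to 822 CPM in Tconv and from 232 through 558 to 844 CPM in Tregs. The 2 ranges overlapped, 13 of 14 Tregs lying within the Tconv range and 1 above it. The edgeR log2 fold change was 0.64 ± 0.24 SE (adjusted p 0.0757), and DESeq2 gave 0.72 (adjusted p 0.0360). It passed without C57Bl/6J SD Treg 11_15 (0.71), C57Bl/6J HFHS Tconv 33_37 (0.74) or C57Bl/6J SD Treg 67_71 (0.74). In the hypothalamus *Il2rb* ranged from 376 through 595 to 1469 CPM in Tconv and from 0 through 268 to 871 CPM in Tregs, with 11 of 16 Tregs under the Tconv range, and did not pass (-1.41 ± 0.65, adjusted p 0.243; without the 4 libraries -0.96, adjusted p 0.0748).

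*Il2rg* encodes the gamma chain that both receptors use. Brain Tconv ranged from 1084 through 1751 to 2147 CPM and brain Tregs from 1536 through 2038 to 2887 CPM. The ranges overlapped, with 6 of 14 Tregs above every Tconv library. It did not pass by edgeR (log2 0.20 ± 0.10, adjusted p 0.197), while DESeq2 gave 0.29 (adjusted p 0.0105) and limma voom 0.21 (adjusted p 0.0497). In the hypothalamus the medians were 1696 CPM in Tconv and 1581 CPM in Tregs, with 12 of 16 Tregs within the Tconv range (edgeR log2 -0.19 ± 0.19, adjusted p 0.787; without the 4 libraries 0.04).

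*Jak3* encodes the kinase bound to the gamma chain. Its brain levels ranged from 6.77 through 18.7 to 123 CPM in Tconv and from 13.6 through 142 to 347 CPM in Tregs. Tregs were the higher group, 9 of 14 lying above the highest Tconv library and 5 within the range. *Jak3* rose by a log2 of 2.43 ± 0.44 SE (adjusted p 0.000375 by edgeR), and by 2.15 to 2.76 when any 1 library was left out. Within C57Bl/6J mice alone it was 1.43 (adjusted p 0.256), within Balb/c mice alone 3.57. Hypothalamic Tregs had *Jak3* at 0 in 8 of 16 libraries and up to 381 CPM in others, against 51.8 to 185 CPM in Tconv, and did not pass (-0.75 ± 1.11, adjusted p 0.901; without the 4 libraries -0.27).

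*Jak1* encodes the kinase bound to the other chains of both receptors. It ranged from 285 through 381 to 635 CPM in brain Tconv and from 275 through 506 to 825 CPM in brain Tregs. The groups overlapped in 9 of 14 Tregs, with 4 above and 1 below (edgeR log2 0.18 ± 0.15, adjusted p 0.533). In the hypothalamus Tconv had a median of 536 CPM and Tregs of 385 CPM, 6 of 16 Tregs lying under every Tconv library (log2 -0.86 ± 0.63, adjusted p 0.624; without the 4 libraries -0.45).

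*Stat5b* and *Stat5a* encode the 2 transcription factors that the kinases activate. *Stat5b* ranged from 24.2 through 42.6 to 108 CPM in brain Tconv and from 41.9 through 123 to 418 CPM in brain Tregs. Tregs were higher, 8 of 14 lying above every Tconv library. *Stat5b* rose by a log2 of 1.78 ± 0.32 SE (adjusted p 0.000298 by edgeR), and by 1.62 to 1.90 when any 1 library was left out. In C57Bl/6J mice alone the value was 1.30 (adjusted p 0.0578), in Balb/c mice alone 2.27. In the hypothalamus *Stat5b* was at 0 in 6 of 16 Tregs, with 12.98 CPM at the median against 58.8 in Tconv (log2 -0.28 ± 1.10, adjusted p 0.977; without the 4 libraries -0.07).

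*Stat5a* ranged from 0.265 through 15.3 to 41.3 CPM in brain Tconv and from 0.479 through 42.9 to 137 CPM in brain Tregs, with 7 of 14 Tregs above the Tconv range and 7 within it. By edgeR it did not pass (log2 1.68 ± 0.61, adjusted p 0.0637). It passed without C57Bl/6J SD Treg 11_15 (1.77), C57Bl/6J SD Treg 67_71 (1.78) or Balb/c HFHS Treg 15_21 (1.78), and DESeq2 gave 1.78 (adjusted p 0.0114). In the hypothalamus 12 of 16 Tregs lay under the Tconv range of 1.20 to 54.1 CPM and 6 were at 0. The hypothalamic fit gave -3.29 ± 2.01 (adjusted p 0.477 by edgeR; without the 4 libraries -1.54, adjusted p 0.759), and DESeq2 gave -3.25 (adjusted p 0.0107).

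*Cish*, an inhibitor that STAT5 induces, ranged from 53.3 through 204 to 281 CPM in brain Tconv and from 137 through 275 to 490.1 CPM in brain Tregs. Tregs were the higher group, 7 of 14 lying above every Tconv library and 7 within the range. *Cish* rose by a log2 of 0.62 ± 0.20 SE (adjusted p 0.0313 by edgeR), but by limma voom it was 0.48 (adjusted p 0.0691). By edgeR it was 1.22 for Balb/c alone (adjusted p 0.00402) and 0.14 for C57Bl/6J alone (adjusted p 0.942). It no longer passed when any of 7 of the 27 libraries was left out: Balb/c SD Tconv 37_41 (0.59) or 32_36 (0.59), Balb/c HFHS Tconv 15_21 (0.58), 16_20 (0.58) or 47_25 (0.52), Balb/c HFHS Treg 47_25 (0.57) and Balb/c SD Treg 37_41 (0.54). In the hypothalamus Tregs ran from 0.132 to 701 CPM around Tconv of 186 to 549 CPM, with 7 below, 5 within and 4 above (log2 -0.33 ± 0.59, adjusted p 0.928; without the 4 libraries -0.01).

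*Socs1*, an inhibitor of JAK kinases, ranged from 58.3 through 110.5 to 175 CPM in brain Tconv and from 32.2 through 106 to 197 CPM in brain Tregs. The ranges overlapped, with 4 Tregs below, 7 within and 3 above (edgeR log2 -0.24 ± 0.27, adjusted p 0.668). In the hypothalamus the medians were 161 CPM in Tconv and 172 CPM in Tregs, whose libraries ran from 0 to 1313 CPM (log2 0.31 ± 0.66, adjusted p 0.944; without the 4 libraries 0.75, adjusted p 0.486).

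*Bcl2* encodes a protein that keeps T cells alive and is induced through both receptors. It ranged from 398 through 553 to 702 CPM in brain Tconv and from 8.92 through 141 to 248 CPM in brain Tregs. All 14 Tregs lay under all 13 Tconv libraries. *Bcl2* fell by 2.11 on the log2 scale (log2 fold change -2.11 ± 0.26 SE, adjusted p 1.57e-06 by edgeR), between -2.21 and -2.03 when any 1 library was left out, with -2.14 for C57Bl/6J alone and -2.13 for Balb/c alone. In the hypothalamus 14 of 16 Tregs lay under the Tconv range of 326 to 794 CPM, their median being 60.0 CPM. Library Balb/c HFHS Treg 16_20, at 881 CPM, was the 1 above it. The hypothalamic log2 fold change was -2.29 ± 0.83 (adjusted p 0.0903 by edgeR; without the 4 libraries -1.90, adjusted p 0.136). It passed without library 16_20 (-2.60, adjusted p 0.0419) and with DESeq2 (-2.20, adjusted p 0.0299).

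**Figure D2:**
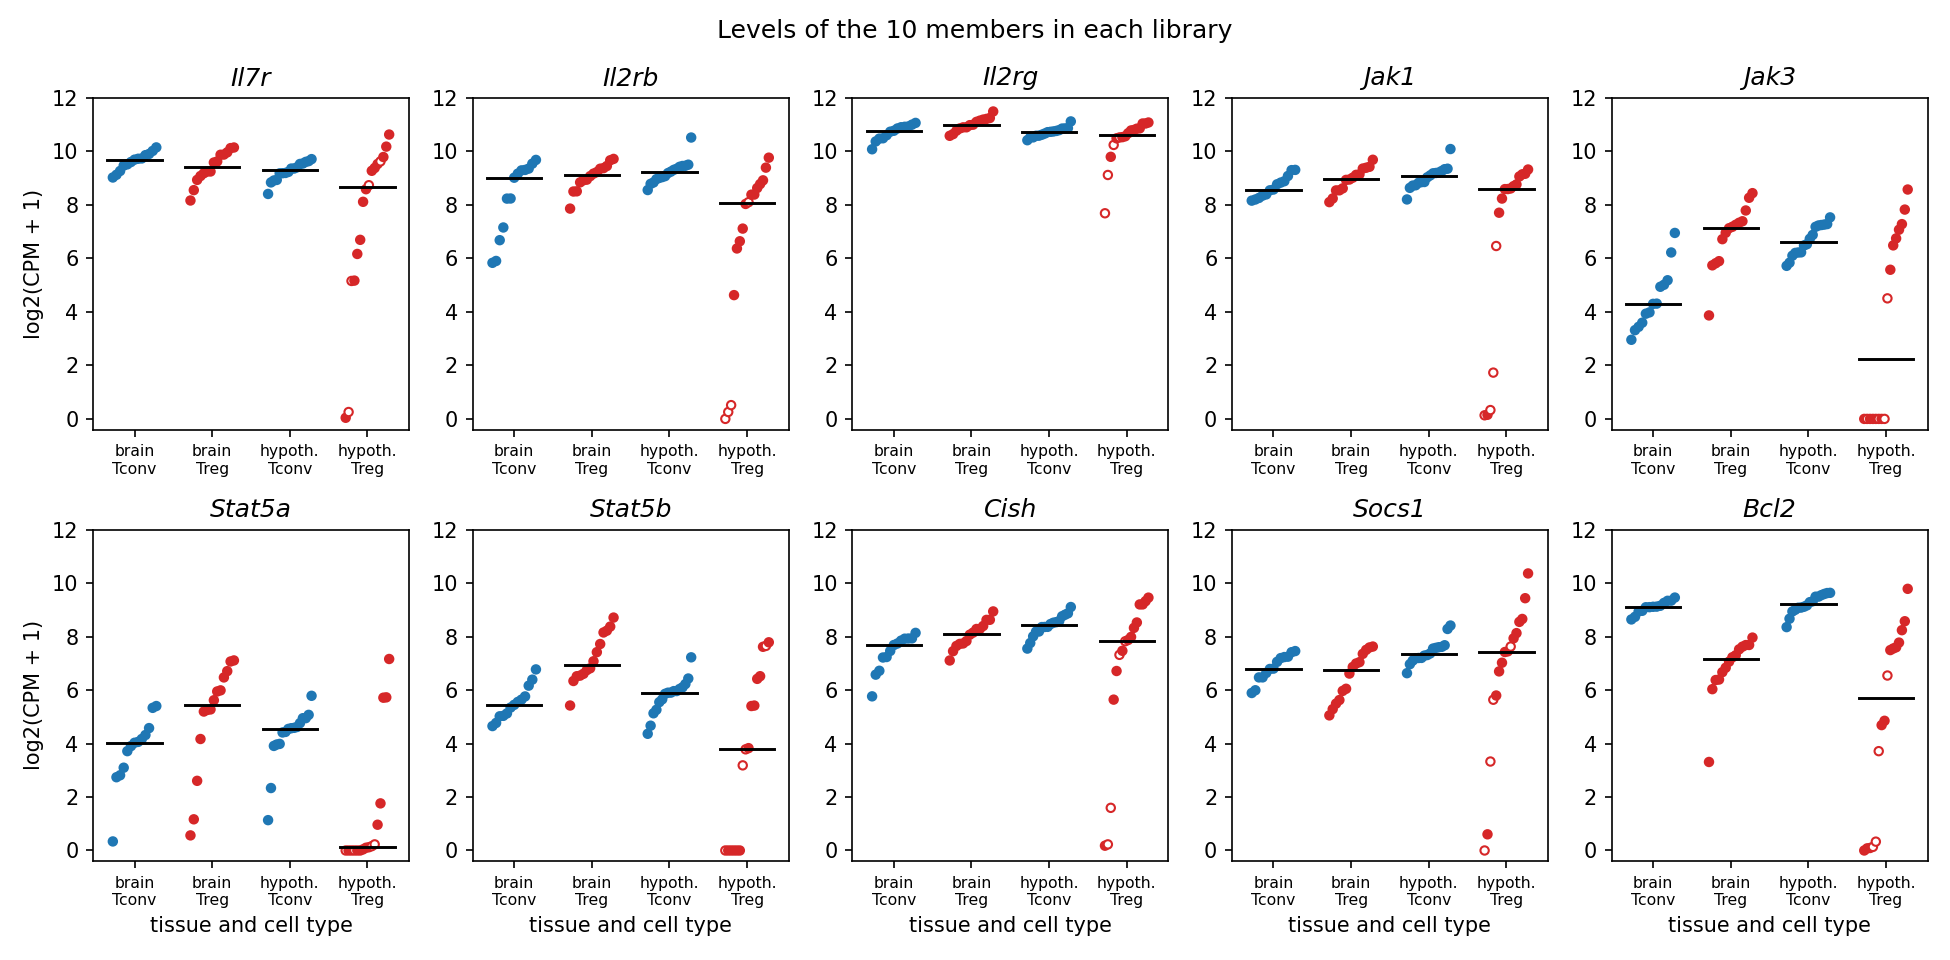
Levels of the 10 members as log2(CPM + 1) in each library, by organ and cell type. Lines are medians and open points are the same 4 libraries labelled Treg with *Foxp3* under 10 CPM; in the rest of the brain *Bcl2* has 14 Tregs under 13 Tconv.

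Transcript length was taken into account to compare members with each other, in TPM, which divides by length before scaling each library. *Il2rg* was the most abundant, with medians of 1429 TPM in brain Tconv and 1821 TPM in brain Tregs. *Il7r* stood at 281 TPM in both, *Il2rb* at 247 and 299 TPM and *Bcl2* at 172 and 45.7 TPM. *Stat5b* (9.35 and 31.6), *Jak3* (5.64 and 47.2) and *Stat5a* (4.19 and 15.7) were lower, *Jak3* lying just above *Bcl2* in Tregs. In hypothalamic Tregs the medians were 1297 TPM for *Il2rg*, 192 for *Socs1* and 163 for *Il7r*, and 0.0287 TPM for *Stat5a*.

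Some genes on the marker lists of other cells moved with the cell type. Of the 5 macrophage and monocyte markers *Ly6c2* did, with a median of 703 CPM in brain Tconv (lowest 147) and 0.147 CPM in brain Tregs (highest 7.51), while the medians of the other 4 were 0.875 CPM or lower in both. The 2 CD8 T cell markers summed to a median of 276 CPM in Tconv and 21.5 in Tregs, with *Cd8a* at 0 in 11 of 14 Tregs, and 4 natural killer and innate lymphoid markers to 40.7 and 0 CPM, with *Ncr1* at 0 in all 14 Tregs. Of the microglial markers, *P2ry12* had a median of 4.63 CPM in Tconv and was at 0 in 12 of 14 Tregs. Of the endothelial markers *Pecam1* moved, with medians of 24.4 CPM in Tconv and 94.9 in Tregs, of the B cell markers *Cd79b* (5.09 and 18.4), and of the astrocyte markers *Aldoc* (3.09 and 12.2). The other genes of these 3 lists had medians of 0.161 CPM or lower in both. The 4 oligodendrocyte markers stood at 94.1 and 93.2 CPM, and the 4 neuronal and 5 erythroid markers had medians under 1 CPM in both. The Treg list of 4 also moved (197 and 2222 CPM), *Cd44* had medians of 157 and 109 CPM, and the 5 T cell markers stood at 7391 and 7217 CPM. In the hypothalamus *Ly6c2* had a median of 364 CPM in Tconv and 0.182 CPM in Tregs, the CD8 sum 218 and 0.0688 CPM and *Pecam1* 35.3 and 0 CPM, while *P2ry12* was at 0 in 14 of 16 Tconv and 12 of 16 Treg libraries. In its flow cytometry the study defined CD4+ T cells after removal of cells with CD8a, CD11b, F4/80 or B220. How much of any member's difference came with these lists was not tested.

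Among 37 further genes of the receptor family, its cytokines, kinases and targets, 12 of 35 tested passed between the cell types in the rest of the brain (median log2 -0.04). There 15% of all genes passed. Of the 12, 8 rose (3.98% of all genes rose) and 4 fell (11% of all genes fell). *Il2ra* rose by 3.96 ± 0.27 (adjusted p 8.8e-12 by edgeR), which the sort on CD25 brings with it. *Il4ra* (2.40), *Crlf2* (1.73), *Il21r* (1.55), *Pim1* (1.47), *Stat3* (0.97), *Ptpn6* (0.64) and *Ets1* (0.37) rose as well. *Jak2* fell by 1.39 ± 0.37 on the log2 scale, from a Tconv range of 56.6 to 185 CPM to a Treg range of 11.1 to 100.4 CPM. *Il2* held 42.8 to 322 CPM in brain Tconv and was at 0 in 13 of 14 Tregs, *Il4* was at 0 in all 14 Tregs against 8.63 to 76.3 CPM, and *Il21* at 0 in all 14 against up to 59.9 CPM. In the hypothalamus 6 of 35 passed, all lower in Tregs (median log2 -0.82). Most genes passing there were lower in Tregs, with 7.19% of all 11283 genes lower and 0.541% higher. Of the 6, *Il2* held 19.3 to 99.7 CPM in Tconv, with 13 of 16 Tregs at 0. *Pim2* held 38.7 to 174 CPM in Tconv, with 11 of 16 Tregs at 0. *Il4* was at 0 in 15 of 16 Tregs, and *Il7*, *Il21* and *Foxo3* were at 0 in all 16. In hypothalamic Tconv *Il7* was at 0 in 10 of 16 libraries (highest 19.3 CPM), *Il21* at 0 in 9 of 16 (highest 133 CPM) and *Foxo3* at a median of 0.204 CPM (highest 11.3 CPM).

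The HFHS diet was compared with SD within each organ and cell type, with strain in the model. The groups held 6 to 8 libraries each, and the 4 libraries with little *Foxp3* enter the hypothalamic Treg comparison, 3 on SD and 1 on the HFHS diet.

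*Il7r* ranged from 559 through 851 to 1038 CPM on the HFHS diet and from 521 through 778 to 1137 CPM on SD in brain Tconv. In brain Tregs the ranges were 375, 688 and 1134 CPM on HFHS diet against 286, 699 and 1117 CPM on SD. Diet groups overlapped in both. Hypothalamic Tconv ranged from 339.6 through 622 to 839 CPM on HFHS diet and from 458 through 629 to 749 CPM on SD, and hypothalamic Tregs from 35.05 through 448 to 1160.4 CPM and from 0.0295 through 405 to 1588 CPM. These overlapped too.

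By edgeR the log2 fold change of *Il7r* with HFHS diet was 0.11 ± 0.13 in hypothalamic Tconv, 0.11 ± 0.15 in brain Tconv, 0.19 ± 1.14 in hypothalamic Tregs and -0.11 ± 0.29 in brain Tregs, all with an adjusted p of 1. Exact permutation within each strain gave a lowest p of 0.286 over 8 tests, for hypothalamic Balb/c Tregs (log2 3.58; 4.82 with 0.1 in place of 1 added to CPM; 2.14 without the libraries with little *Foxp3*), while hypothalamic C57Bl/6J Tregs gave -0.53 (p 0.657; -2.69 without them). The hypothalamic Treg value fell below 0 without Balb/c SD Treg 32_36 (-0.13) or 06_10 (-0.11), Balb/c HFHS Treg 26_31 (-0.27) or C57Bl/6J HFHS Treg 06_10 (-0.000384), and without the 4 libraries with little *Foxp3* (-0.61). The brain Treg value rose above 0 without C57Bl/6J SD Treg 67_71 (0.09).

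Of the 10 members, 0 passed in each of the 4 diet comparisons by edgeR, and 0% of all genes did, of 10875 tested in hypothalamic Tconv, 12287 in brain Tconv, 7715 in hypothalamic Tregs and 11711 in brain Tregs. At an unadjusted p under 0.05 there were 1, 2, 1 and 0 members in that order and 406, 591, 213 and 853 genes. DESeq2 called 16, 12, 180 and 327 genes, with 1 member in hypothalamic Tregs, and limma voom 0, 1, 4 and 16 genes with 0 members. Median log2 fold changes of members and of all genes were -0.11 and -0.01, 0.11 and -0.03, 0.53 and 0.19, and -0.11 and 0.10.

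The lowest unadjusted p among members in Tconv belonged to *Il2rb* in brain Tconv, which ranged from 56.1 through 309.8 to 822 CPM on HFHS diet and from 142 through 576 to 746 CPM on SD. The groups overlapped and it did not pass (edgeR log2 -0.74 ± 0.25, p 0.00849, adjusted p 0.899). Within Balb/c mice *Il2rb* ranged from 56.1 to 101.8 CPM on HFHS diet and from 141.8 to 301.7 CPM on SD, without overlap, with 3 libraries on each diet. The permutation test of *Il7r* in these same libraries could give no p below 0.1. How many of all genes separated the diets in this way was not counted. In C57Bl/6J mice the means were 658 and 651 CPM. Whether this diet difference varied with strain was not tested. *Socs1* in hypothalamic Tconv ranged from 98.1 through 151 to 203 CPM on HFHS diet and from 146 through 192 to 339.7 CPM on SD, overlapping, with a log2 fold change of -0.42 ± 0.16 (p 0.0159 by edgeR) and an adjusted p of 1. *Stat5a* in hypothalamic Tregs was 0.9498 CPM or lower in all 8 libraries on SD, while on the HFHS diet 3 of 8 libraries held 51.9, 142 and 51.5 CPM and the other 5 held 2.39 CPM or less. The 37 further genes gave 0 calls by edgeR in all 4 diet comparisons.

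The hypothalamus was compared with the rest of the brain within each cell type. In activated Tconv this set 16 libraries against 13, and in Tregs 16 against 14. Strain and diet were in the model.

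In Tconv 5 of 10 members passed, with 11.8% of 11261 genes passing. Of these 4 were higher in hypothalamus (5.48% of all genes were higher) and 1 was lower (6.28% of all genes were lower). The median log2 fold change was 0.39 over members and -0.02 over all genes. *Il7r* was lower in hypothalamus (log2 -0.50 ± 0.10, adjusted p 0.00258 by edgeR). Its medians were 629 CPM there and 828 CPM in the rest of the brain. Of 16 hypothalamic libraries, 4 lay under every brain library and 12 within their range. A fit of fewer libraries with a block for the pool number no longer called *Il7r*, *Il2rb* or *Socs1*, as given with the processing below.

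*Il2rb* was higher in hypothalamic Tconv (0.86 ± 0.23, adjusted p 0.0128), though 15 of 16 libraries lay within the brain range. In group means this was 72.3 to 532 CPM and 248 to 576 CPM from brain to hypothalamus in Balb/c mice on HFHS diet and SD, against 658 to 557 CPM and 651 to 867 CPM in C57Bl/6J mice, and whether it varied with strain was not tested. *Jak3* was higher by 2.08 ± 0.31 (adjusted p 0.000132), 6 of 16 lying above every brain library. *Cish* was higher by 0.93 ± 0.16 (adjusted p 0.000592), with 13 of 16 above every brain library. *Socs1* was higher by 0.54 ± 0.13 (adjusted p 0.00715), with 7 of 16 above. *Jak1* (0.31 ± 0.13, adjusted p 0.104) and *Bcl2* (0.03 ± 0.13, adjusted p 0.928) did not pass. Without hypothalamic C57Bl/6J SD Tconv 67_66 the count was 6 members, and without brain Balb/c HFHS Tconv 16_20 the genes passing fell from 1324 to 856.

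Of the 37 further genes, 10 of 35 tested passed between the organs in Tconv, with 11.8% of all genes passing. Of the 10, 9 were higher in hypothalamus (5.48% of all genes were higher), among them *Socs3* (0.97), *Stat6* (0.94), *Pim1* (0.80) and *Stat3* (0.79). *Il2* was the 1 lower there (-0.83 ± 0.25). *Ly6c2* had a median of 364 CPM in hypothalamic and 703 CPM in brain Tconv. In Tregs 0 of 10 members passed between organs by edgeR, with 1.44% of 9954 genes passing. The *Il7r* value was -0.58 ± 0.64, and at an unadjusted p under 0.05 there were 2 members (*Il2rg* -0.47 and *Stat5a* -4.57) and 783 genes. DESeq2 called 1 member and 784 genes, and limma voom 6 members and 4306 genes. The 143 genes became 219 without C57Bl/6J HFHS hypothalamic Treg 72_76, 409 without C57Bl/6J SD hypothalamic Treg 11_15 (369 when the set of genes tested was chosen again) and 470 without all 4 libraries with little *Foxp3*.

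Balb/c females were compared with C57Bl/6J males within each organ and cell type, with diet in the model. Brain Tconv had 6 Balb/c and 7 C57Bl/6J libraries, and the other groups 6 to 8. Strain and sex change together in each of these comparisons.

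In brain Tconv 6 of 10 members passed, with 23.5% of 12287 genes passing. Of these 2 were higher in Balb/c mice (12.2% of all genes were higher) and 4 were lower (11.3% of all genes were lower), with a median log2 fold change of -0.53 over members and -0.03 over all genes. *Il7r* ranged from 778 through 944 to 1137 CPM in Balb/c and from 521 through 710.1 to 854 CPM in C57Bl/6J mice. Of the 6 Balb/c libraries 4 lay above all 7 C57Bl/6J libraries, and *Il7r* was higher by a log2 of 0.73 ± 0.15 (adjusted p 0.00167 by edgeR). *Bcl2* was higher by 0.50 ± 0.13 (adjusted p 0.00779), with 2 of 6 Balb/c libraries above every C57Bl/6J library.

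*Il2rb* ranged from 56.1 through 122 to 302 CPM in Balb/c and from 518 through 634 to 822 CPM in C57Bl/6J brain Tconv, with no overlap, and was lower in Balb/c (-1.95 ± 0.26, adjusted p 5.56e-05 by edgeR). *Jak3* did not overlap either, at 6.77 to 14.8 CPM against 18.7 to 123 CPM (-1.81 ± 0.44, adjusted p 0.00569). *Cish* was lower in Balb/c (-0.67 ± 0.18, adjusted p 0.0114), 5 of 6 libraries lying under every C57Bl/6J library. *Jak1*, at 285 to 373 CPM against 381 to 635 CPM, was lower by the narrowest margin (-0.39 ± 0.13, adjusted p 0.0386), and with DESeq2 size factors the adjusted p was 0.0699 (-0.35).

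*Jak1* also did not pass without C57Bl/6J SD Tconv 62_66 (-0.31) or 11_15 (-0.40), C57Bl/6J HFHS Tconv 77_80 (-0.40) or 33_37 (-0.37), Balb/c SD Tconv 37_41 (-0.39) or 32_36 (-0.37), or Balb/c HFHS Tconv 15_21 (-0.37). *Stat5b* did not pass in brain Tconv (-0.69 ± 0.26, adjusted p 0.0654 by edgeR), but it passed without Balb/c SD Tconv 37_41 (-0.84) or C57Bl/6J HFHS Tconv 38_42 (-0.79) and with DESeq2 (-0.64, adjusted p 0.0449). Of the 37 further genes 17 of 35 tested passed, with 23.5% of all genes passing. Of the 17, 12 were lower in Balb/c (11.3% of all genes were lower), led in size by *Il21r* (-2.71) and *Il4ra* (-2.29). The 5 higher ones (12.2% of all genes were higher) included *Pim1* (2.44), *Il4* (1.98) and *Il2* (1.65). The sum of the macrophage and monocyte list, nearly all of it *Ly6c2*, moved with strain as well. It stood at 149 to 355 CPM in Balb/c and 703 to 1395 CPM in C57Bl/6J brain Tconv, with no overlap. Every other gene of that list had a median of 0.875 CPM or lower over brain Tconv. The CD8 sum ranged from 276 through 348 to 479 CPM in Balb/c and from 1.94 through 39.8 to 736 CPM in C57Bl/6J brain Tconv, overlapping; how much of the members' differences came with either was not tested.

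In hypothalamic Tconv 0 of 10 members passed between strains by edgeR, with 2.1% of 10875 genes passing. *Il7r* ranged from 586 through 744 to 839 CPM in Balb/c and from 339.6 through 535 to 658 CPM in C57Bl/6J mice, with 6 of 8 Balb/c libraries above every C57Bl/6J library (0.43 ± 0.13, p 0.00381, adjusted p 0.119 by edgeR). At an unadjusted p under 0.05 there were 2 members, *Il7r* and *Socs1*, and 1076 genes. DESeq2 called both members (*Il7r* 0.42, adjusted p 0.0265; *Socs1* -0.50) and limma voom 0. Without C57Bl/6J SD Tconv 67_71 *Il7r* passed (0.50).

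In Tregs 0 of 10 members passed between strains by edgeR in either organ, with 0.0389% of 7715 genes passing in hypothalamus and 0.299% of 11711 in the rest of the brain. *Il7r* was -0.94 ± 1.15 and 0.31 ± 0.29. Genes with an unadjusted p under 0.05 numbered 292 and 1045, with 0 members among them in either organ, and DESeq2 and limma voom also called 0 members in both. The 3 hypothalamic genes passing became 1 when any of 11 of the 16 libraries was left out, those being all but Balb/c SD 32_36, Balb/c HFHS 26_31 and C57Bl/6J HFHS 77_80, 06_10 and 72_76. *Pim1* was the 1 of the further genes to pass in brain Tregs (4.92 ± 0.81), and 0 passed in hypothalamic Tregs by edgeR.

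**Figure D3:**
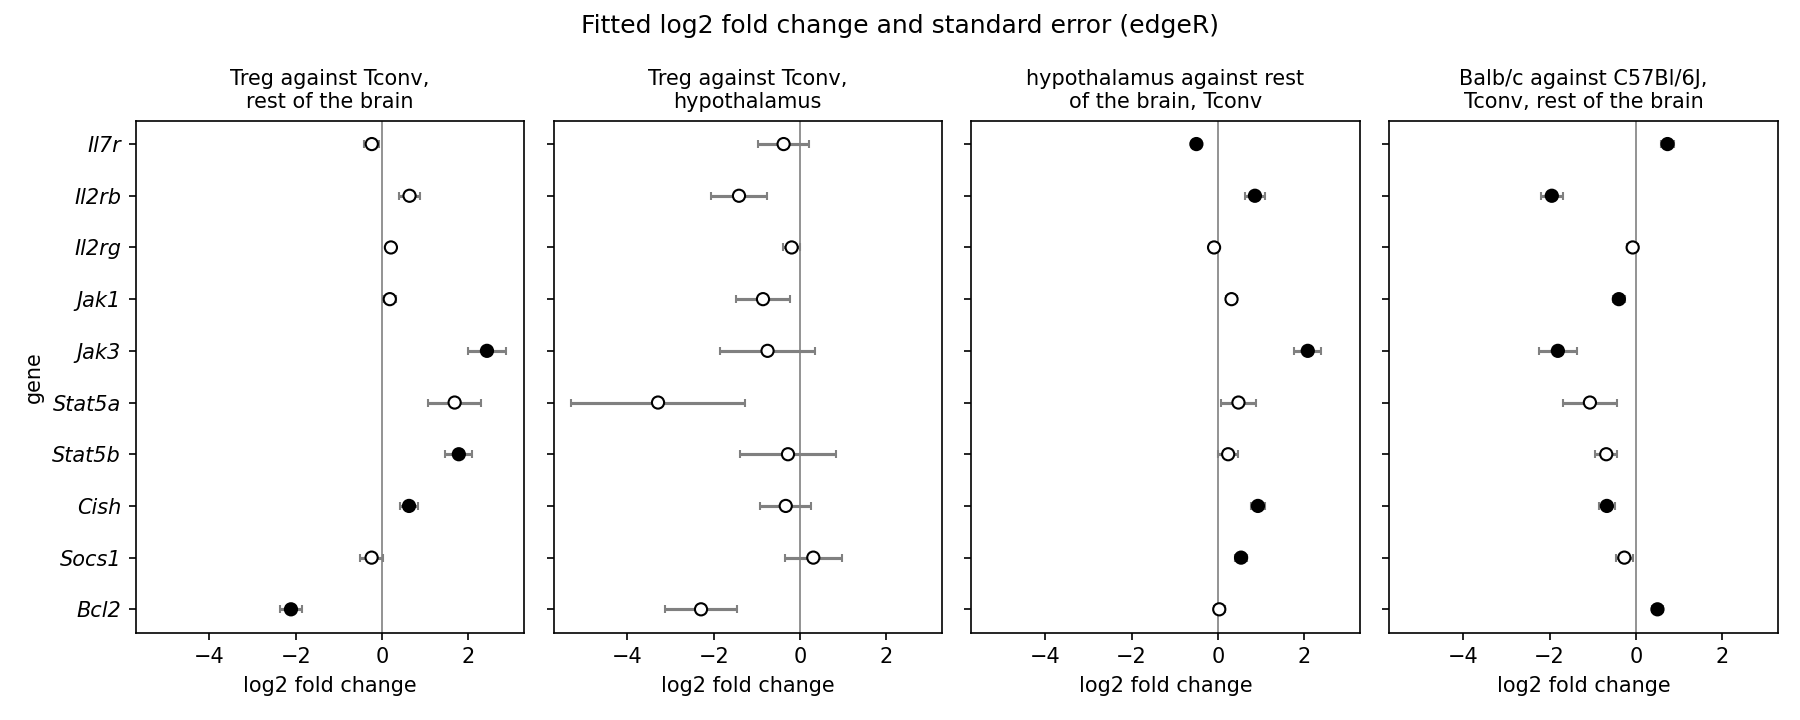
Log2 fold changes ± SE of the 10 members by edgeR: Tregs against Tconv in the 2 organs, hypothalamus against the rest of the brain in Tconv, and Balb/c against C57Bl/6J in brain Tconv. Filled points have an adjusted p below 0.05 over all genes: 4, 0, 5 and 6 members.

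Whether the difference between Tregs and Tconv varied with strain, diet or organ was tested with interaction terms in edgeR. In the rest of the brain 1 of 10 members passed for strain, with 4.8% of 13956 genes passing (1.66% higher and 3.15% lower). This was *Il2rb*, with an interaction of 1.48 ± 0.38 (adjusted p 0.0196); the Treg against Tconv difference was 1.69 (adjusted p 0.000816) when only Balb/c libraries were fitted and -0.07 when only C57Bl/6J libraries were. *Il2rb* in brain Tregs ranged from 232 through 516 to 599 CPM in Balb/c and from 362 through 659 to 844 CPM in C57Bl/6J mice. *Cish* (1.05 ± 0.34, adjusted p 0.0763), *Jak3* (1.96 ± 0.74, adjusted p 0.133) and *Il7r* (-0.45 ± 0.34, adjusted p 0.584) did not pass. Of the 37 further genes *Il4ra* (3.07), *Il21r* (2.38) and *Stat3* (1.79) passed.

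In the hypothalamus 1 of 10 members passed for diet, with 4.71% of 11283 genes passing (1.5% higher and 3.21% lower). It was *Stat5a* (adjusted p 0.0464), whose Treg libraries on SD were near the floor as given above, so the size of the interaction has no meaning beyond those levels. DESeq2 called 1 member and 1062 genes for this interaction, and limma voom 0 members and 7 genes. *Pim2*, *Myc* and *Il4* passed among the further genes. By edgeR 0 members passed for strain in hypothalamus (8.02% of 11283 genes passed), 0 for diet in the rest of the brain (0.222% of 13956) and 0 for organ (6.63% of 12225), where *Il2*, *Il4* and *Foxo3* passed among the further genes. At an unadjusted p under 0.05 there were 0, 0 and 3 members and 1826, 1582 and 1894 genes in these interactions; DESeq2 called 0, 0 and 0 members and limma voom 0, 0 and 6, beside 6, 19 and 4366 genes. For *Il7r* these interactions were -0.10 ± 1.20 (diet, hypothalamus), -1.15 ± 1.19 (strain, hypothalamus) and -0.31 ± 0.35 (diet, rest of the brain).

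Over all 59 libraries and 12224 genes, levels were compared with those of *Il7r* by Pearson correlation of log2(CPM + 1), here with CPM after TMM scaling. The most alike were *Mat2b* (r 0.858), *Eif3h* (0.804), *Cct5* (0.775), *Ndufb3* (0.760) and *Wdr83os* (0.738). Without the 4 libraries with little *Foxp3* (n = 55) they were 0.825, 0.732, 0.635, 0.702 and 0.652. The most negative were *Tns3* (-0.561), *Tnfsf12* (-0.559), *Pfkfb4* (-0.554), *Sash1* (-0.551) and *Rasgrp3* (-0.544), and without those 4 libraries they were 0.193, 0.0403, -0.402, 0.0915 and 0.199. With other members over the 59 libraries *Il7r* correlated at 0.551 for *Bcl2*, 0.467 for *Stat5b*, 0.463 for *Il2rg*, 0.423 for *Il2rb* and 0.419 for *Jak1*, and at -0.0124 for *Cish*.

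The pilot holds 1 library for each group, so its ratios carry a 95% interval for counting error alone, as do the floors above, and no test. Ratios were scaled by the median of ratios over the 8 libraries. Totals ran from 99925 counts (*ob*/*ob* CD25 high) to 5334511 (WT CD25 high).

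On SD, naive cells held *Il7r* at 12573 counts (3792 CPM) and Tregs at 93 counts (75.3 CPM). On the HFHS diet, naive cells held it at 7626 counts (3508 CPM) and Tregs at 2964 counts (1460.4 CPM). Tregs were low on SD and nearer to naive cells on HFHS diet. The Treg to naive ratio was 0.0191 (0.0154 to 0.0234) on SD and 0.490 (0.470 to 0.512) on HFHS diet. Between diets, the HFHS to SD ratio was 26.5 (21.6 to 32.98) in Tregs and 1.03 (1.004 to 1.06) in naive cells; by CPM alone the latter was 0.925. Markers of other cells differed between the 2 Treg pools as well: the 4 astrocyte markers summed to 729.9 CPM on SD (*Aqp4* 587) and 33.998 CPM on HFHS diet, the B cell markers to 222 and 0 CPM and the macrophage and monocyte markers to 125 and 7.88 CPM, and their part in the ratio was not tested. The hypothalamic groups of the second experiment, with 4 pools each, gave no such difference that passed, although Balb/c Tregs ran in the same direction (mean 518 CPM on HFHS diet and 263 CPM on SD, log2 3.58, exact permutation p 0.286).

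In the *ob*/*ob* and WT pools, *Il7r* was 3192 counts (1848 CPM) in *ob*/*ob* CD25-negative cells, 250 counts (2502 CPM) in *ob*/*ob* CD25 high cells, 229 counts (1039 CPM) in WT CD25-negative cells and 136 counts (25.5 CPM) in the WT CD25 high library, which is the one with *P2ry12*. By these labels, which *Il2ra* does not bear out, the CD25 high to CD25-negative ratio was 1.23 (1.07 to 1.396) in *ob*/*ob*. Scaled on those 2 libraries alone it was 0.749. In WT the ratio was 0.0764 (0.0613 to 0.0949), or 0.0245 by CPM. The *ob*/*ob* to WT ratio was 1.79 (1.56 to 2.05) in CD25-negative cells, or 3.43 when scaled on those 2 libraries alone, and 28.7 (23.2 to 35.7) in CD25 high cells, or 98.1 by CPM.

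Other members of the pilot moved unevenly between the Treg pools on the 2 diets. *Il2rb* had 987 counts on HFHS diet and 9 on SD, a ratio of 91.3 (47.9 to 200.2). *Bcl2* had 1577 counts on HFHS diet and 11 on SD, a ratio of 119 (66.5 to 239.6). *Stat5a* had 16 counts and 0, and in naive cells 0 on HFHS diet and 102 on SD. The ratios of *Il2rg* (1.07), *Jak1* (1.38) and *Stat5b* (1.41) were nearer 1, and that of *Cish* was 0.205. By CPM alone these ratios were 0.778, 1.005, 1.03 and 0.150 in that order. Naive cells on HFHS diet against SD gave 11.5 for *Il2rb*, 3.92 for *Cish*, 2.72 for *Il2rg*, 1.92 for *Bcl2* and 0.561 for *Jak1*. *Jak3* had 26 counts or fewer and *Socs1* 10 or fewer in all 8 libraries, and *Il2rb*, *Stat5b* and *Cish* were at 0 in *ob*/*ob* CD25 high cells.

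**Figure D4:**
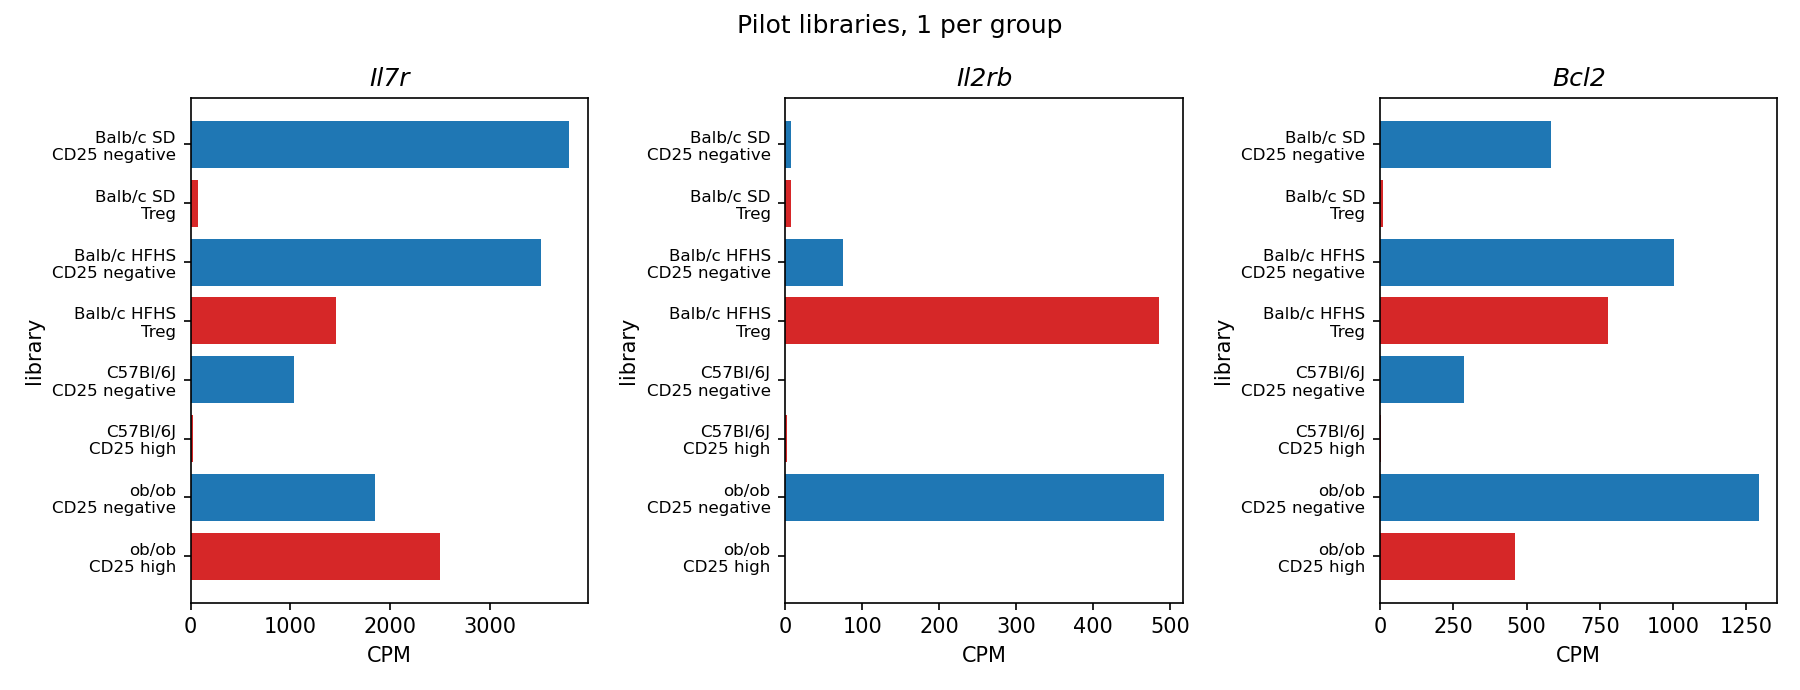
CPM of *Il7r*, *Il2rb* and *Bcl2* in the 8 pilot libraries, 1 pool each. Bars are single libraries, red for Tregs or CD25 high cells and blue for naive or CD25-negative cells.

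The members share no neighbourhood apart from the STAT genes. *Stat5a* (gene 20850, chr11:100859351-100885169) and *Stat5b* (gene 20851, chr11:100780731-100859004) lie next to each other. *Il7r* (gene 16197, chr15:9506159-9529941) and *Il2rb* (gene 16185, chr15:78479256-78511621) lie on the same chromosome. The others are *Il2rg* (gene 16186, chrX:101264385-101268255), *Jak1* (gene 16451, chr4:101151974-101265282), *Jak3* (gene 16453, chr8:71676383-71690577), *Cish* (gene 12700, chr9:107296659-107302784), *Socs1* (gene 12703, chr16:10783808-10785536) and *Bcl2* (gene 12043, chr1:106538176-106714290).

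STAT5 binds sites of the form TTC, any 3 bases, then GAA. RefSeq promoters of build GRCm38.p6, from 250 bases before to 50 bases after the start, held 11 windows for 9 members, *Il2rb* having no entry. Such a site, read on both strands, was found in 8.30% of 32851 promoter windows and more than 1 in 0.457%. Among members it was found in the windows of *Cish*, with 2 sites from base 251, and *Il7r*, with 1 at base 109, and in 0 of the other 9. A match describes the sequence and not binding. Both windows are printed because they are the 2 with a site, which is in capitals: *Il7r* on the minus strand of chr15:9529827-9530126 and *Cish* on the plus strand of chr9:107296409-107296708.
Il7r: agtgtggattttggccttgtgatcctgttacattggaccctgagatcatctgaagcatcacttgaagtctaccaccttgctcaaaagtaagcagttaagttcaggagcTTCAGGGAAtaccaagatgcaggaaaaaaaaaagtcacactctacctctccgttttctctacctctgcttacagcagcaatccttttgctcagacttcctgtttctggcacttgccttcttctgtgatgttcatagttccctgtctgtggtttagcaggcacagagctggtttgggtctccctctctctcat
Cish: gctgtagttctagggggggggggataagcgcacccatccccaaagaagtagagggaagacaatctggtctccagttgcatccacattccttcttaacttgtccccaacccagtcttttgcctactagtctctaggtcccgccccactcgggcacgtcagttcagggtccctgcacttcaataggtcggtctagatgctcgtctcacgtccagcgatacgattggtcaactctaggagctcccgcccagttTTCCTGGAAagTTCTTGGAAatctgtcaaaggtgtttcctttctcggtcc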

How the data were processed

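RNA of T cells sorted from mouse hypothalamus and from the rest of the brain was measured in 67 libraries. For the 59 libraries of the second experiment, the authors deposited Salmon estimated counts and TPM for 35034 RefSeq transcripts, and 34652 (98.9%) could be assigned to genes and were summed by gene. Estimated counts were rounded to whole numbers. For the 8 pilot libraries, the authors deposited counts of reads per gene symbol, made with BWA and HTSeq on mm10.

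Groups were strain, diet, organ and cell type as the labels give them, with 2 to 4 pools for each group. A gene was tested if it had over 10 counts in a number of libraries no lower than the size of the smallest group; tests were run with edgeR 4.0.16 quasi-likelihood fits after TMM scaling, with Benjamini-Hochberg adjustment over all genes of a fit, with a threshold of 0.05. *Il7r* was also tested by exact two-sided permutation of log2(CPM + 1), adjusted over 8 tests. Pilot ratios were scaled by the median of ratios and carry 95% Clopper-Pearson intervals. A level of 3 counts was the floor. Median depth was 15027196 to 19113230 counts for each organ and cell type. Alternatives were DESeq2 1.42.0, its size factors in edgeR, a filter on total counts, limma 3.58.1 voom with sample weights, a block for the pool number, each strain or diet alone, a pseudocount of 0.1, and each library left out in turn. Fits without the 4 libraries labelled Treg with *Foxp3* under 10 CPM were chosen after seeing the data. So were fits without the 1 library with few T cell markers. R 4.3.3, Python 3.11.15, numpy 2.4.6, scipy 1.17.1, pandas 2.3.3 and matplotlib 3.10.9 were used.

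The members, the 37 further genes and the marker lists (T cell, Treg, Tconv, CD8 T cell, natural killer and innate lymphoid, B cell, microglia, macrophage or monocyte, neuron, astrocyte, oligodendrocyte, endothelial, erythroid) were chosen with earlier results of these data known. The text names all members, further genes that passed between cell types and others where the text needs them, marker genes as checks, and the 5 genes most and the 5 least correlated with *Il7r*.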

Additional observations from a re-analysis of the deposited data

Results flagged for a closer look

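Values that stand apart from the other 3 libraries of their group were looked for with Dixon's gap test at the 95% level, for 10 members in 120 groups of 4 libraries, and 16 groups held one. Chance alone gives about 1 in 20 groups. That rate does not hold for *Jak3* and *Stat5b* in hypothalamic Balb/c SD Tregs, where the other 3 libraries were at 0 and any value would stand apart, nor where the other 3 had 3 counts or fewer, as for *Stat5a* in C57Bl/6J SD and HFHS Tregs and *Bcl2* in C57Bl/6J HFHS Tregs of hypothalamus. Whether the cause was technical was not tested.

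In the hypothalamus these were, among Tconv, *Il7r* at 657 CPM in C57Bl/6J SD 67_71, *Il2rb* at 1469 CPM in C57Bl/6J SD 11_15, *Jak1* at 646 CPM in Balb/c SD 37_41 and *Jak3* at 185 CPM in Balb/c HFHS 15_21. Among hypothalamic Tregs they were *Il2rg* at 556 CPM in Balb/c SD 32_36, a library with little *Foxp3*, *Jak3* at 226 CPM and *Bcl2* at 218 CPM in Balb/c SD 42_46, and *Stat5b* at 41.8 CPM in Balb/c SD 37_41. C57Bl/6J SD Treg 67_71 held 3 of them, *Stat5a* at 0.9498 CPM, *Stat5b* at 195 CPM and *Socs1* at 170.5 CPM, and C57Bl/6J HFHS Treg 72_76 held 2, *Stat5a* at 51.5 CPM and *Bcl2* at 179 CPM.

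In the rest of the brain they were *Jak3* at 347 CPM in C57Bl/6J HFHS Treg 38_42, *Stat5b* at 297 CPM in C57Bl/6J SD Treg 11_15 and *Cish* at 213 CPM in C57Bl/6J SD Tconv 01_05.

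The difference between Tregs and Tconv varied with another factor for 2 of the 10 members, with 5 interactions tested for each by edgeR. Of all genes, 4.71% passed for diet and 8.02% for strain in the hypothalamus, 0.222% for diet and 4.8% for strain in the rest of the brain, and 6.63% for organ. The difference of *Il2rb* varied with strain in the rest of the brain (interaction log2 1.48, adjusted p 0.0196). That of *Stat5a* varied with diet in the hypothalamus (fitted log2 7.82, adjusted p 0.0464), where Tregs on SD were near the floor, so that the fitted size depends on the prior count and is no bound.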

How the results depend on the processing

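Over 99 results, 513 alternatives were fitted. Of those on the main results, 278 kept their direction and their side of the threshold or stayed within the bounds, 74 moved, 4 passed newly, 1 no longer passed and 14 changed direction. Of those on single genes, 115 were the same, 12 passed newly, 14 no longer passed and 1 changed direction. The values below are those that moved; unless said otherwise the cause was not tested.

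With DESeq2 the genes called between Tregs and Tconv of hypothalamus numbered 1605 with 2 members, and in the rest of the brain 7 members were called. DESeq2 called 16 genes for diet in hypothalamic Tconv, 12 in brain Tconv, 180 with 1 member in hypothalamic Tregs and 327 in brain Tregs. Between organs it called 784 genes and 1 member in Tregs. Between strains it called 542 genes and 2 members in hypothalamic Tconv (*Il7r* 0.42), 250 genes in hypothalamic and 301 in brain Tregs. For interactions it called 1062 genes (diet, hypothalamus), 488 (diet, rest of the brain) and 1255 with 2 members (strain, rest of the brain), and the *Il7r* interaction with organ turned to -0.29, as it did with DESeq2 size factors in edgeR (-0.29).

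With a filter on total counts alone, which leaves more genes in, edgeR called 1422 and 5265 genes between cell types in hypothalamus and the rest of the brain, 39 for diet in hypothalamic Tregs, 6990 and 711 between organs in Tconv and Tregs, 11 between strains in hypothalamic Tregs, and 1302, 1719 and 2892 for the interactions with diet and strain in hypothalamus and with organ.

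With limma voom and sample weights, 7329 genes with 8 members (*Il7r* -2.005) passed between cell types in hypothalamus and 3492 (*Il7r* -0.49) in the rest of the brain. For diet it called 1 gene in brain Tconv, 4 in hypothalamic Tregs and 16 in brain Tregs, where *Il7r* turned to 0.16. Between organs it called 2334 genes in Tconv and 4306 with 6 members in Tregs (*Il7r* -1.95). Between strains it called 13 genes in hypothalamic and 123 in brain Tregs. For interactions it called 7 genes with 0 members (diet, hypothalamus; *Il7r* turned to 1.75), 6 (strain, hypothalamus), 19 (diet, rest of the brain), 2 members (strain, rest of the brain) and 4366 genes with 6 members (organ; *Il7r* turned to -1.32). With edgeR 0 members passed for the interaction with organ, strain in hypothalamus and diet in the rest of the brain.

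Fewer libraries entered when a strain or diet was fitted alone. Between cell types in hypothalamus, C57Bl/6J alone gave 383 genes and *Il7r* turned to 0.29, Balb/c alone gave 1437 genes, and SD alone 1 member. In the rest of the brain C57Bl/6J alone gave 408 genes and 1 member, with *Il2rb* turned to -0.0717, SD alone 355 genes and 2 members, and HFHS diet alone 872 genes. For diet, *Il7r* turned to -0.62 in hypothalamic Tregs of C57Bl/6J alone and to 0.0660 in brain Tregs of Balb/c alone.

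Without the 4 libraries labelled Treg with little *Foxp3*, a choice made after seeing the data, 1742 genes passed between cell types in hypothalamus, 470 between organs in Tregs, and 1231 and 1297 for the interactions with diet in hypothalamus and with organ. *Il7r* turned to -0.61 for diet in hypothalamic Tregs and, by exact permutation, to 1.20 for hypothalamic C57Bl/6J SD. Without the 1 library with few T cell markers, also chosen after seeing the data and with the genes to test chosen again, the counts were 1547 between cell types in hypothalamus, 369 between organs in Tregs, 1 between strains in hypothalamic Tregs and 1291 for the interaction with diet in hypothalamus. With TMM-scaled CPM the permutation difference of *Il7r* for diet turned to -0.0331 in brain Balb/c Tregs and to -0.0257 in brain C57Bl/6J Tconv.

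With a replicate block for the pool number, 15 pools entered for cell types in hypothalamus, 12 in the rest of the brain, and 9 and 10 for organs in Tconv and Tregs. The paired fits called 5638 genes with 2 members between cell types in hypothalamus, 3 members in the rest of the brain, 81 genes with 2 members, *Jak3* and *Cish*, between organs in Tconv (*Il7r* -0.48, with *Il7r*, *Il2rb* and *Socs1* no longer passing; the same 18 libraries without the block gave 910 genes with 5 members) and 0 genes by edgeR between organs in Tregs, where the same pools without the block gave 24. Whether equal pool numbers mean the same mice is not given. Genes of libraries with the same number correlated above 0.1, after group means were removed, in 1 of 12 pools for Tconv with Tregs of the rest of the brain and in 0 of 15, 9 and 10 for the others.

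Leaving out 1 library at a time, in 236 fits with the genes tested kept, gave these ranges. Between cell types in hypothalamus 822 to 1420 genes and 0 to 1 members passed, and in the rest of the brain 1826 to 2368 genes and 3 to 6 members, with *Il7r* from -0.67 to -0.26 and from -0.35 to -0.18. The members gained and lost are named with the results above. For diet *Il7r* ran from -0.27 to 0.61 in hypothalamic Tregs and from -0.26 to 0.0873 in brain Tregs. Between organs 856 to 1668 genes passed in Tconv and 132 to 409 in Tregs. Between strains 0 to 1 members passed in hypothalamic Tconv and 1 to 3 genes in hypothalamic Tregs.

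In the pilot, scaling by CPM gave *Il7r* ratios of 0.416 (Treg to naive, HFHS diet), 0.925 (HFHS to SD, naive), 19.4 (HFHS to SD, Tregs), 0.0245 (WT CD25 high to CD25-negative) and 98.1 (*ob*/*ob* to WT, CD25 high). Scaling on the 2 libraries of a ratio alone gave 0.380 (Treg to naive, HFHS diet), 1.13 (HFHS to SD, naive), 0.749 (*ob*/*ob* CD25 high to CD25-negative) and 3.43 (*ob*/*ob* to WT, CD25-negative).

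Hypothalamic Tregs held the fewest genes over 10 counts (median 4479.5), with members at 0 in up to 8 of 16 libraries, although their median total of 15027196 counts was near those of the other groups. Depth sets the floor of 3 counts, at most 1.74 CPM there.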
